A study of Homo sapiens with 12 samples.

Results

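The binding of PPARγ was described at 5 genes that govern the uptake of fatty acids from circulating lipoproteins, ANGPTL4, LPL, CD36, VLDLR and LMF1, out of 19974 protein-coding genes. A peak was assigned to a gene when its summit lay within 50 kb of the gene's span, and this gave 7 of the 2846 pooled peaks of the KQ mutant and 22 of the 25164 pooled peaks of wild-type PPARγ. A pooled peak is called reproducible when it overlapped, by 1 bp or more, a peak in each library of its group. Of the peaks near these genes, 1 KQ peak and 8 wild-type peaks were reproducible, beside 12.4% of all pooled KQ peaks and 31.9% of all pooled wild-type peaks. The rule that assigns peaks uses gene names and positions only, but the genes were chosen with earlier results of these data known.

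All cells were MCF10A-NeuT, a human mammary epithelial line transformed by the NeuT oncogene. They were infected with a retrovirus that expressed the PPARγ mutant K154/155Q, called KQ, with glutamine in place of lysine at each of 2 adjacent residues, or wild-type PPARγ. The design text describes KQ as deficient in acetylation, gives both receptors a Flag tag, and asks how the change alters DNA binding. Chromatin was cross-linked, immunoprecipitated and sequenced, and the KQ and the wild-type group had 2 ChIP libraries each among the 12 libraries of the series. Vector ChIP and input libraries are not analysed here. The labels name a PPARγ antibody for the pull-down whereas the series' design text names one against the Flag tag, and with the first, endogenous PPARγ would be captured as well, in both groups. The labels mention no deletion of the cells' PPARG gene and do not say whether a line was 1 clone, and the retroviral vector (pMSCV-IRES-GFP) also carries GFP. The labels do not state whether libraries came from separate cultures, so their spread may be technical. Peak lists hold no expression values, and the cell type could not be checked against its markers.

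Triglyceride in lipoproteins reaches cells after lipoprotein lipase, the product of LPL, splits it into fatty acids at the capillary wall. ANGPTL4 is a secreted inhibitor of that lipase, LMF1 is a membrane protein of the endoplasmic reticulum that the lipase needs to fold, CD36 is a cell-surface carrier for the released fatty acids, and VLDLR binds whole triglyceride-rich particles. PPARγ binds DNA as a heterodimer with RXR, and ANGPTL4, LPL and CD36 are long-known PPAR targets in fat cells and macrophages.

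The wild-type libraries had more peaks and lower backgrounds than the KQ libraries. There were 1263 and 1035 peaks in KQ libraries 1 and 2, against 18143 and 17859 in wild-type libraries 1 and 2. Each list gives a fold enrichment per peak, which is the authors' ratio of the tags at the summit over the caller's local background. The fold and the p-value of a peak together fix a whole number of tags at its summit, and that number and the background are given here beside the fold. The median background at a summit was 2.01 and 1.77 tags in the KQ libraries, against 1.41 and 0.448 tags in the wild-type libraries. The lowest background at any summit was 1.17 tags in the pooled KQ list, against 0.524 tags in the pooled wild-type list. Tag numbers were not scaled for depth or for this difference and are compared here only as values.

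ANGPTL4 was the one gene of the 5 with a reproducible KQ peak, and 4 of the 5 had a reproducible wild-type peak. Among all protein-coding genes these shares were 2.68% for KQ and 37.7% for wild type, and 2.54% had a reproducible peak in both groups, as ANGPTL4 did. The contrast depends on the rule and on list length. When a peak in the other library sufficed, 3 of the 5 genes had a KQ peak without KQ library 2. Without KQ library 1, 2 of the 5 had one. With the reproducible wild-type list limited to its 354 lowest q-values, the length of the reproducible KQ list, 1 of the 5 had a wild-type peak. Shares of all genes under these changed rules were not counted, and the 2.68% and 37.7% do not apply to them. Counting every pooled peak, 3 of the 5 genes had a KQ peak against 16.4% of all genes, and 5 of 5 had a wild-type peak against 67.1% of all genes. LMF1 had no reproducible peak in either group, and VLDLR and LMF1 had no KQ peak in the pooled list or in either KQ library. Of the 7 pooled KQ peaks, 6 overlapped a pooled wild-type peak (85.7%, exact 95% interval 42.1 to 99.6), beside 80.4% of all pooled KQ peaks. With 50% of each KQ peak required to be covered, the number near these genes was 5 instead of 6. The share of all KQ peaks under that rule was not counted. In the other direction, 5 of the 22 pooled wild-type peaks overlapped a KQ peak (22.7%, exact 95% interval 7.82 to 45.4), beside 9.1% over the whole list. These 5 were all among the 8 reproducible wild-type peaks, of which 62.5% therefore overlapped a KQ peak (exact 95% interval 24.5 to 91.5), beside 20.1% of all reproducible wild-type peaks. The intervals cover counting error only, and they are wide because so few peaks lie near 5 genes. Since the genes were chosen with earlier results of these data known, the shares beside those of all genes or peaks are not a test of enrichment.

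**Figure D1:**
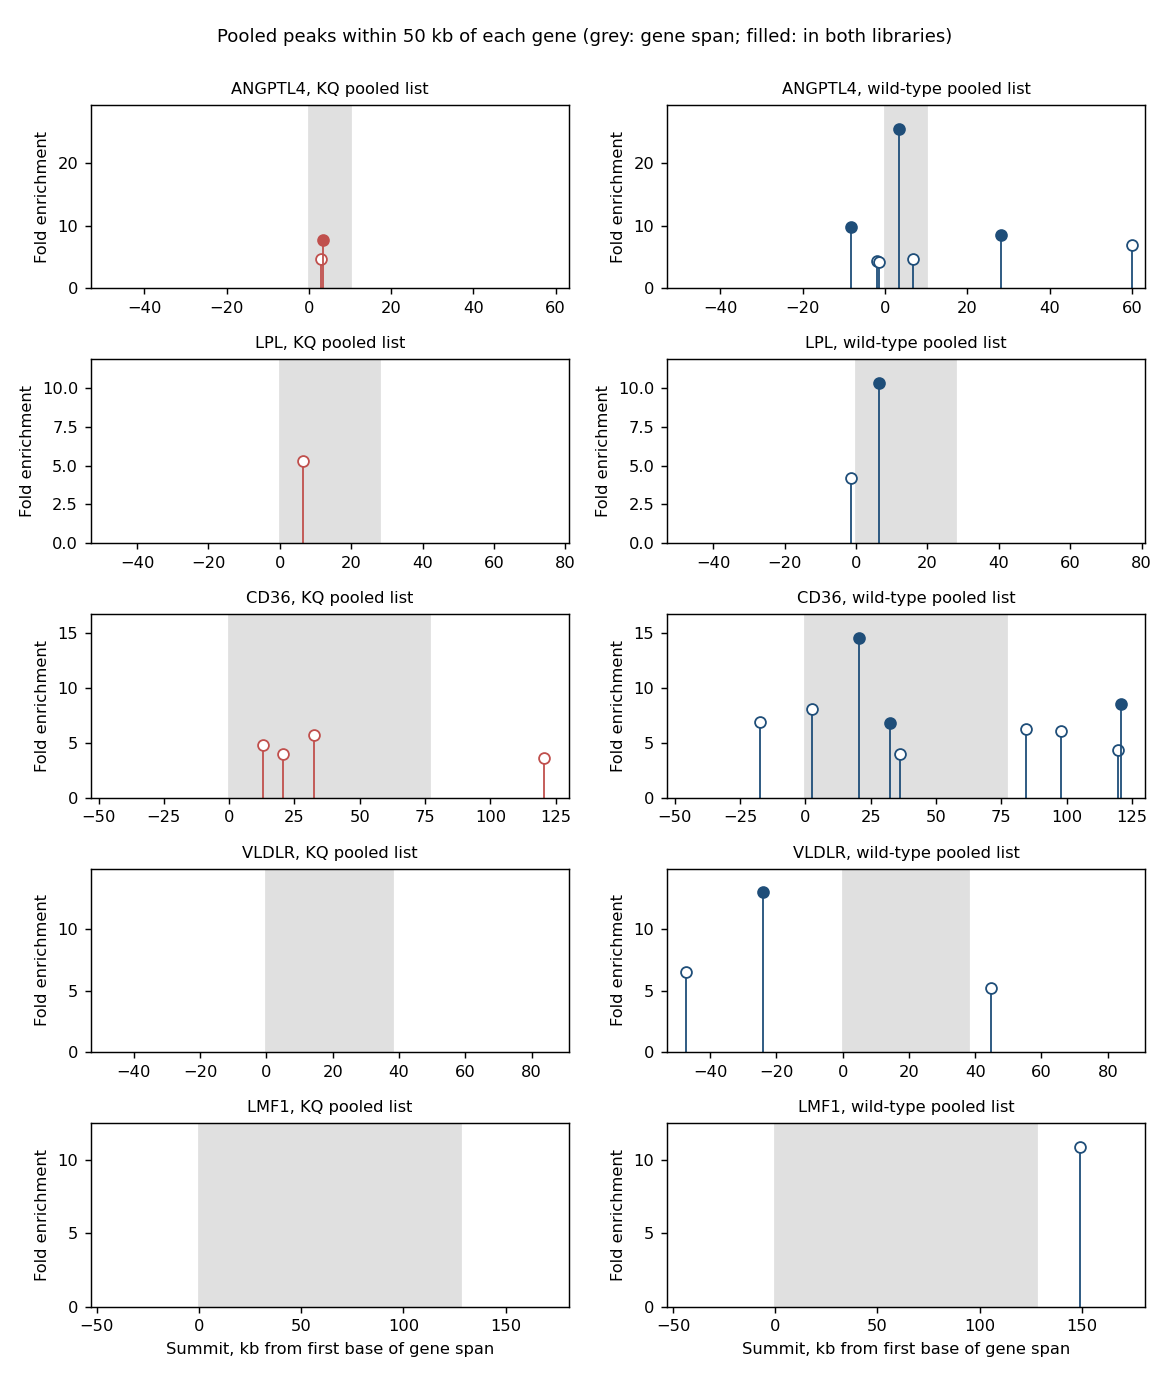
Pooled peaks within 50 kb of each gene, KQ on the left and wild type on the right: the x axis is the summit's distance in kb from the first base of the gene span, the y axis the authors' fold enrichment, grey marks the gene span, and filled circles are peaks found in both libraries of the group. KQ has 1 filled circle, inside ANGPTL4 at a fold of 7.66, where the wild-type peak reaches 25.5.

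ANGPTL4 held the strongest site of the 5 genes in both groups, and it was the one site found in all 4 single libraries. The gene (NCBI Gene ID 51129) spans 8364155 to 8374370 on chromosome 19 in hg38. The pooled KQ peak lay at 8367337 to 8367711, with its summit 3.33 kb into the gene, and the pooled wild-type peak at 8367225 to 8367739, with its summit 65 bp farther on. The fold was 8.21 and 6.24 in KQ libraries 1 and 2, against 22.2 and 21.5 in wild-type libraries 1 and 2. It was 7.66 in the pooled KQ list and 25.5 in the pooled wild-type list. Both KQ values were thus below both wild-type values, and the ranges did not overlap. Over all overlapping pairs of pooled peaks the median fold was also lower with KQ, 4.88 against 9.0. The share of all sites whose library folds did not overlap between the groups was not counted. The gap is therefore not shown to be particular to ANGPTL4.

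The tags at this site, which are not scaled for depth, differed less between the groups than the fold did, and the part of depth in this was not tested. The summit held 48 and 34 tags in the KQ libraries, against 69 and 35 in the wild-type libraries. In the pooled lists it held 75 tags with KQ (95% Poisson interval 59.0 to 94.0) and 85 tags with wild type (67.9 to 105). These intervals cover counting error only, not the spread between libraries. They are not scaled for depth, so they do not compare the groups. The local background was 4.97 and 4.61 tags in the KQ libraries and 8.92 tags in the pooled KQ list, against 2.16 and 0.672 tags in the wild-type libraries and 2.37 tags in the pooled wild-type list. The pooled KQ background at ANGPTL4 was above the median of its list, 4.12 tags, and the pooled wild-type background was above its median of 1.98 tags by less. By q-value the site ranked 19 of 2846 in the pooled KQ list and 26 of 25164 in the pooled wild-type list. Ranks in lists of unequal length do not show a change.

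KQ had a second peak inside ANGPTL4, just upstream of the first. It lay at 8366996 to 8367230, with a summit 2.99 kb into the gene and a fold of 4.72 from 34 tags over a background of 6.42. KQ library 1 had it, at a fold of 6.83 with 26 tags, and KQ library 2 did not. It touched the upstream edge of the broad wild-type peak by 6 bp and counts as shared by that overlap, although the wild-type summit was 413 bp away.

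Wild-type PPARγ had 6 further pooled peaks around ANGPTL4, and none of them overlapped a KQ peak. A reproducible one lay 8.31 kb upstream (8355635 to 8355981, pooled fold 9.82, 36 tags). With wild type its fold was 2.56 (library 1) and 11.4 (library 2), from 21 tags over a background of 7.59 in library 1 and 18 tags over a background of 0.672 in library 2. The tags of the wild-type libraries were close and the backgrounds were not. The other reproducible one (8392193 to 8392547, pooled fold 8.50, 31 tags) lay 18.0 kb beyond the gene and inside RAB11B, a small GTPase of vesicle recycling, with a fold of 5.99 and 8.37 in wild-type libraries 1 and 2.

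The remaining 4 wild-type peaks around ANGPTL4 were weaker and not reproducible. A pair lay 1.95 kb and 1.46 kb upstream of the start, with a pooled fold of 4.35 and 4.26, the first found in library 2 alone and the second in library 1 alone. A peak 6.70 kb into the gene (fold 4.65, 11 tags) was called in neither single library. The last (fold 6.88, 16 tags) lay inside MARCHF2, 49.7 kb beyond ANGPTL4 and just inside the window. The start of ANGPTL4 itself carried no peak in any of the 6 lists. The RefSeq window from 250 bases before to 50 after that start, chr19:8363905-8364204 on the plus strand of GRCh38.p14, is shown because wild-type peaks flank it on both sides:
ANGPTL4 start: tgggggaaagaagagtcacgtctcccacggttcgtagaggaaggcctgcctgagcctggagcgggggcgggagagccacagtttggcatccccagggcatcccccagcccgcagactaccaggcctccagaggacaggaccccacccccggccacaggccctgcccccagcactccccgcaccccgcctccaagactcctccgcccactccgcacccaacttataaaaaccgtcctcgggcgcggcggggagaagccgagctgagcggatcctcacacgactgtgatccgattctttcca

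LPL had 1 site that both groups shared. The gene (NCBI Gene ID 4023) spans 19939253 to 19967259 on chromosome 8. The pooled KQ peak lay at 19945610 to 19945832, inside the gene, and the pooled wild-type peak at 19945590 to 19945823, with the summits 31 bp apart. KQ library 1 had the site at a fold of 5.17 with 17 tags, and KQ library 2 had no peak there, so it was not reproducible with KQ. Wild-type libraries 1 and 2 had it at 10.8 and 6.83, with 35 and 15 tags. The pooled fold was 5.28 with KQ and 10.3 with wild type, from 26 tags over a background of 4.12 and 46 tags over a background of 3.56. The second wild-type peak, 1.34 kb upstream of the gene's span, was near the end of its list by q (fold 4.19, 7 tags, rank 24597 of 25164) and was called in neither library.

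LMF1, which the lipase needs for its maturation, had the sparsest window although it was the widest. The gene (NCBI Gene ID 64788) spans 853634 to 981613 on chromosome 16, and the window of 228 kb held 1 pooled wild-type peak and 0 KQ peaks in any list. The wild-type peak (1002856 to 1003101, fold 10.9, 40 tags) lay 21.3 kb outside the span and nearer to SOX8, a transcription factor gene 16.0 kb away. Wild-type library 1 had it at a fold of 10.8 with 35 tags, and wild-type library 2 had no peak there. No list had a summit inside LMF1.

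CD36 had the most peaks of the 5 genes in both groups. The gene (NCBI Gene ID 948) spans 80602207 to 80679274 on chromosome 7, and its window held 4 pooled KQ peaks and 9 pooled wild-type peaks. None of the KQ peaks was reproducible, and 3 of the wild-type peaks were. All 3 reproducible wild-type sites had a pooled KQ peak, each found in 1 of the 2 KQ libraries.

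The strongest CD36 site with wild type lay 20.5 kb into the gene. The pooled peaks were at 80622596 to 80622798 with KQ (fold 3.96, 22 tags) and at 80622553 to 80622815 with wild type (fold 14.5, 48 tags). KQ library 1 had it at a fold of 4.89 with 13 tags and KQ library 2 had no peak, against 6.89 and 16.2 in wild-type libraries 1 and 2. The wild-type libraries held 26 and 24 tags there, over backgrounds of 2.92 and 0.545, so that nearly equal tags gave folds more than 2 times apart. The pooled Poisson intervals of the tags were 13.8 to 33.3 with KQ and 35.4 to 63.6 with wild type. These too cover counting error only and do not compare the groups.

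The other shared CD36 sites were found with KQ library 2 and not with library 1. The site 32.5 kb into the gene had a pooled fold of 5.71 with KQ (80634597 to 80634786, 24 tags) and 6.80 with wild type (80634609 to 80634874, 30 tags). Its fold was 5.79 in KQ library 2, against 8.14 and 5.66 in wild-type libraries 1 and 2, so the KQ value lay between the wild-type values. The backgrounds of the pooled lists, 3.38 tags with KQ and 3.56 with wild type, were also close at this site. The third site lay 43.6 kb beyond the gene, nearer to the guidance gene SEMA3C, with a pooled fold of 3.57 for KQ (80722780 to 80723073, 32 tags) and 8.53 for wild type (80722761 to 80723105, 35 tags). Its fold was 4.91 in KQ library 2, against 5.87 and 7.38 in wild-type libraries 1 and 2. The summits of these 3 sites were 26, 24 and 4 bp apart between the groups, beside a median of 27 bp over the 2289 overlapping pairs of the whole lists.

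CD36 also had the 1 pooled KQ peak of the 5 genes with no wild-type peak. It lay at 80615121 to 80615284, 13.0 kb into the gene, with a fold of 4.82 from 27 tags over a background of 4.80. Neither KQ library had it on its own, and no wild-type list had a peak there.

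The 6 other wild-type peaks around CD36 were found in 1 library each. Library 1 alone had those at 2.36 kb into the gene (pooled fold 8.06), 20.7 kb beyond it (6.06) and 42.7 kb beyond it (4.30), and library 2 alone had those 17.3 kb before it (6.86) and 7.52 kb beyond it (6.23). The last, from library 2, lay at 80638340 to 80638477 and was the only peak in any list that overlapped a RefSeq start window of these genes, 2 windows that overlap each other. Its summit was at -103 bp relative to an inner start of CD36, at a pooled fold of 3.95 from 17 tags and a fold of 6.38 in library 2. Over 22132 such windows of protein-coding genes, 0.592% overlapped a pooled KQ peak and 5.45% a pooled wild-type peak. The window chr7:80638266-80638565 is shown for that peak, whose bases are in capitals, and the window chr7:80623842-80624141 because the strongest CD36 site has its wild-type summit at -1407 bp relative to that start, both on the plus strand of GRCh38.p14 from RefSeq:
CD36 start under the peak: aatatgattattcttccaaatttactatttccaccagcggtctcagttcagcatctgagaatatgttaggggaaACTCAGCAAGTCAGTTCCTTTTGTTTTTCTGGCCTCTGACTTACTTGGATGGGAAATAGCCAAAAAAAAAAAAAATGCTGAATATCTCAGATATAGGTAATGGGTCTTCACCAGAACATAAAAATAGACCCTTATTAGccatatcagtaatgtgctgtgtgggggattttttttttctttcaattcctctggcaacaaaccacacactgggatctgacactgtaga
CD36 start near the strongest site: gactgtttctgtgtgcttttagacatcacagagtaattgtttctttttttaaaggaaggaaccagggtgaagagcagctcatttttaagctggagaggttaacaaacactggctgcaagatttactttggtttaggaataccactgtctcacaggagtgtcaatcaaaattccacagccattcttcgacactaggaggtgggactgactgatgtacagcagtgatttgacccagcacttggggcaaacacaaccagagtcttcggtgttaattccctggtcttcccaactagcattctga

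The start windows of these genes held no PPAR half-site. The letters AGGTCA, searched on both strands, were in 0 of the 10 RefSeq windows of ANGPTL4, CD36, VLDLR and LMF1, which have 1, 6, 1 and 2 windows, beside 11.9% of all 22132 windows. The direct repeat AGGTCANAGGTCA was in 0.0226% of all windows and its relaxed form AGGNCANAGGNCA in 0.285%, and neither was in any of the 10. These repeats contain the half-site or a looser form of it. Some of the 10 windows overlap each other, and 0 of so few is not far from the 11.9% of all windows. The sequences under the other peaks were not analysed here.

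VLDLR, the receptor for whole particles, had all of its pooled peaks outside the gene body. The gene (NCBI Gene ID 7436) spans 2621787 to 2660056 on chromosome 9. There were 0 KQ peaks in the window in any list, against 3 pooled wild-type peaks of which 1 was reproducible. The reproducible peak lay 24.0 kb upstream at 2597592 to 2597871, with a pooled fold of 13.0 from 24 tags over a background of 0.927. Its fold was 11.5 and 6.83 in wild-type libraries 1 and 2, with 19 and 7 tags. The others lay 47.3 kb upstream (pooled fold 6.53, library 2 only) and 6.64 kb beyond the gene (5.25, neither library).

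Peaks just outside the 50 kb limit show what the choice of window decides. At LPL a site 52.4 kb upstream of the span, nearest to INTS10, was reproducible in both groups, with a pooled fold of 7.13 with KQ and 6.37 with wild type. This was the shared site with the KQ fold above the wild-type fold, from 31 tags with KQ and 23 tags with wild type. At VLDLR a site lay 50.8 kb upstream with KQ (fold 4.74, not reproducible) and 50.9 kb upstream with wild type (9.65, reproducible). With a limit of 60 kb, chosen after these values were seen, 2 of the 5 genes had a reproducible KQ peak instead of 1. The share of all genes at 60 kb was not counted. The nearest wild-type peak outside the limit at CD36 lay 52.8 kb away (fold 4.51, not reproducible). The farthest peaks inside the limit were those at 49.7 kb from ANGPTL4, 47.3 kb from VLDLR and 43.6 kb from CD36.

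At each of the 5 sites with a pooled peak in both groups, the fold was lower with KQ. The median fold over all overlapping pairs was lower with KQ as well, so this direction is not particular to these genes. The share of all pairs with that direction was not counted. Tags and background did not move alike across the 5 sites. The pooled tags with KQ and wild type were 75 and 85 at ANGPTL4, 26 and 46 at LPL, and 22 and 48, 24 and 30, and 32 and 35 at the CD36 sites in the order above. The pooled background was higher with KQ than with wild type at 4 of the 5 sites and lower at the CD36 site 32.5 kb into the gene. Over all 2289 overlapping pairs of pooled peaks the medians were 26 tags with KQ and 33 with wild type, a background of 4.80 and 2.77 tags, and a fold of 4.88 and 9.0. The part of depth in these differences was not tested.

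**Figure D2:**
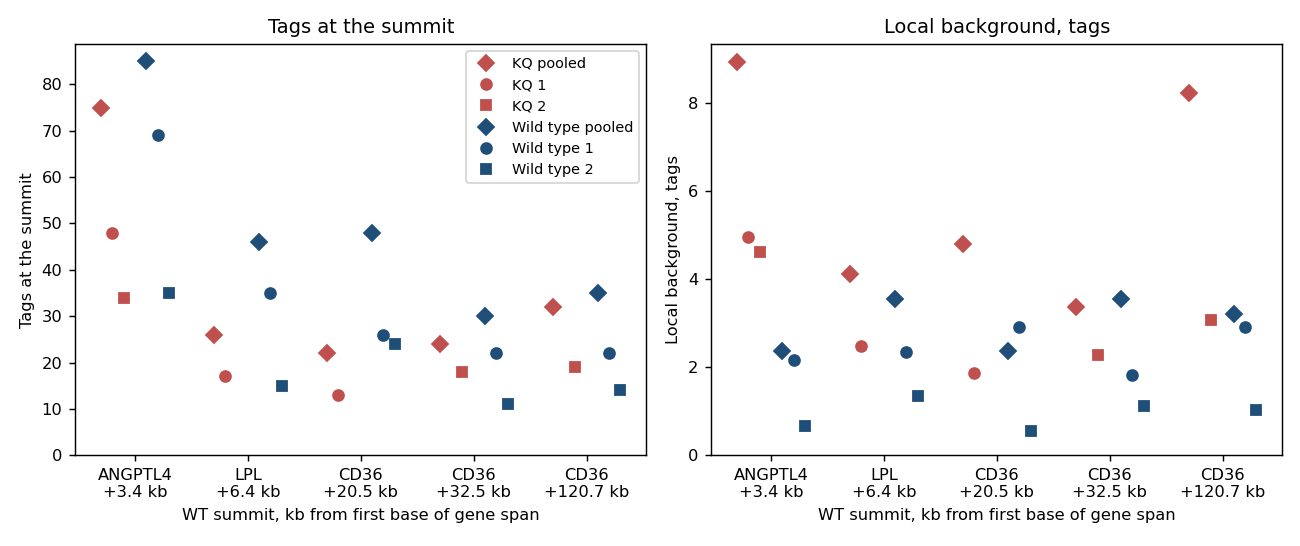
Tags at the summit (left) and the caller's local background (right) at the 5 sites with a pooled peak in both groups, for the pooled list and each library, with KQ in red and wild type in blue; a library with no peak at a site has no point. Tags are not scaled for depth. At ANGPTL4 the pooled tags are 75 with KQ and 85 with wild type, and the background is 8.92 with KQ and 2.37 with wild type.

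In the single libraries, ANGPTL4, CD36 and VLDLR had fewer peaks within 50 kb with KQ than with wild type, with no overlap between the groups. ANGPTL4 had 2 and 1 peaks in the KQ libraries, against 5 and 5 in the wild-type libraries, and CD36 had 1 and 2 against 8 and 7. VLDLR had 0 and 0 with KQ, against 2 and 2 with wild type. LPL had 1 and 0 with KQ, against 1 and 1 with wild type, and LMF1 had 0 and 0 with KQ, against 1 and 0 with wild type. The largest difference was at CD36, with a mean of 1.5 ± 0.71 peaks for KQ and 7.5 ± 0.71 for wild type (SD, n = 2 each), a difference of -6 peaks. With 2 libraries against 2, the two-sided exact permutation test cannot go below p = 0.333, which it gave for ANGPTL4, CD36 and VLDLR (0.556 after Benjamini-Hochberg adjustment over the 5 genes), and it gave p = 1 for LPL and LMF1. More peaks in both wild-type libraries than in both KQ libraries was found for 3 of the 5 genes and for 44.4% of all protein-coding genes, and the reverse for 0 of the 5 and 0.025% of all. Within 5 kb of the span the difference was -0.5 at ANGPTL4 and at VLDLR (exact permutation p = 1 for each), so the groups no longer stood apart, and -2.5 at CD36, where the exact p stayed at 0.333. Inside the span of ANGPTL4 alone the difference was 0.5 peaks in the other direction, since KQ library 1 had 2 peaks there and each wild-type library had 1. The upstream peak of KQ library 1 ended at 8367199. The wild-type peaks began at 8367300 in library 1 and 8367272 in library 2 and did not reach it.

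**Figure D3:**
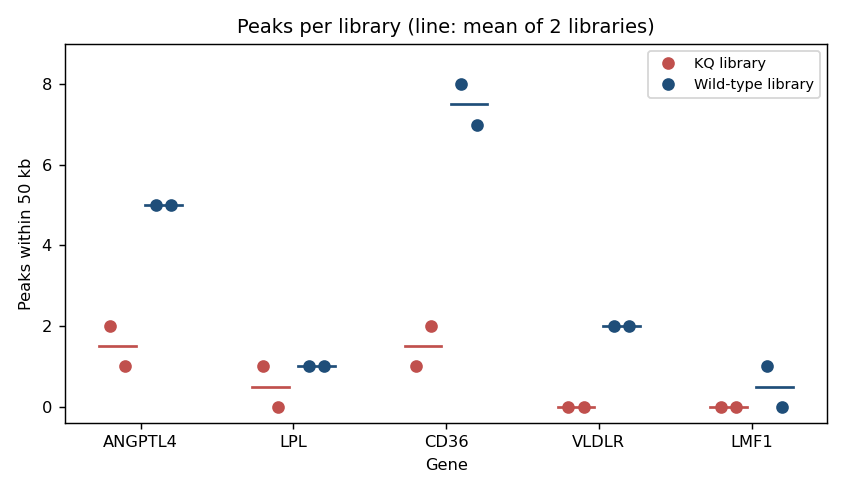
Number of peaks within 50 kb of each gene in the 2 KQ libraries (red, left) and the 2 wild-type libraries (blue, right); points are libraries and lines are means. CD36 has 1 and 2 peaks with KQ against 8 and 7 with wild type, and the groups meet at LPL and LMF1.

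Among all genes, ANGPTL4 ranked high by its best peak in both groups. By the highest pooled fold within 50 kb it was number 250 of 19974 genes with KQ and number 55 with wild type. CD36 was number 1044 with KQ and 1203 with wild type, and LPL was number 1410 with KQ and 3811 with wild type. VLDLR and LMF1, which had no KQ peak, were numbers 1887 and 3223 with wild type. Genes with a pooled peak had a median highest fold of 5.0 with KQ (3270 genes) and 7.87 with wild type (13407 genes). By the number of pooled peaks CD36 was number 14 with KQ and 252 with wild type, and its window is longer than that of ANGPTL4, 177 kb against 110.2 kb. By the highest fold with wild type the order was ANGPTL4, CD36, VLDLR, LMF1 and LPL. The wild-type libraries of CD36, VLDLR and LPL overlap in their spread. It was 6.89 to 16.2 for the best CD36 site, 6.83 to 11.5 for VLDLR and 6.83 to 10.8 for LPL. LMF1 had its peak in library 1 alone and so has no spread to compare.

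**Figure D4:**
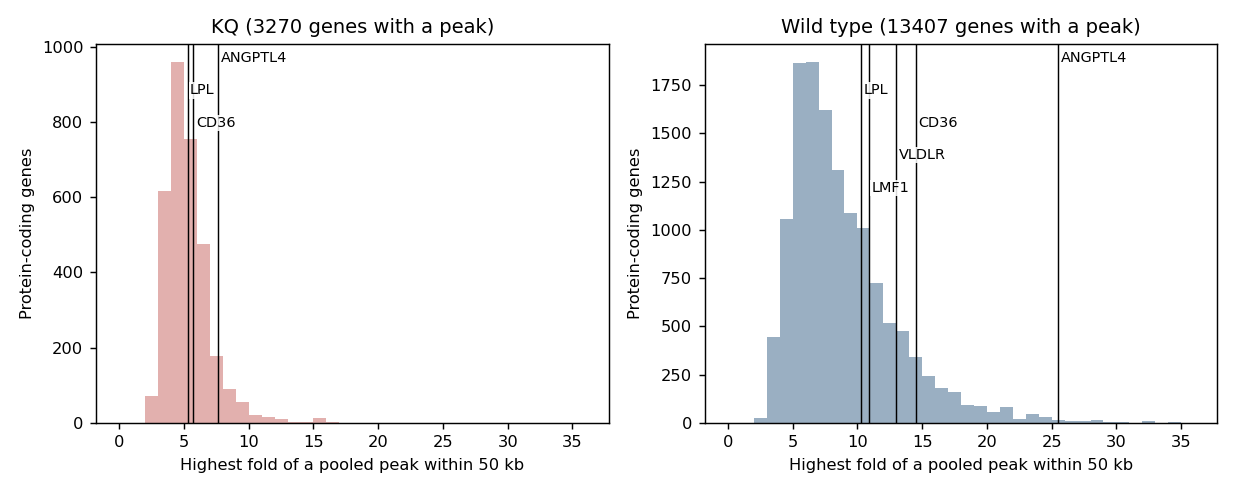
Histogram of the highest fold of a pooled peak within 50 kb over the protein-coding genes that have one, with KQ on the left (3270 genes) and wild type on the right (13407 genes); vertical lines mark the genes described here. ANGPTL4 stands at 7.66 with KQ and at 25.5 with wild type, and VLDLR and LMF1 are missing from the KQ panel because they have no KQ peak.

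The genes most like ANGPTL4 in this pattern were NAV1 and a group around ETFA. Genes close enough to share a peak with ANGPTL4, such as its neighbour RAB11B, were left out of this comparison. Likeness was the Euclidean distance over the 4 single libraries in log2 of the highest fold plus 1. NAV1, a microtubule-associated protein, was closest at a distance of 0.419, with a highest fold of 9.89 and 5.68 in the KQ libraries and 19.8 and 17.6 in the wild-type libraries. ETFA, which takes electrons from fatty acid oxidation, and ISL2 followed at 0.421, with 7.31 and 5.14 in the KQ libraries and 25.4 and 17.9 in the wild-type libraries. ETFA and ISL2 have the same values because they share 1 site on chromosome 15.

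Other genes of lipoprotein handling had mostly wild-type peaks. Of 25 further genes for regulators of the lipases, the lipases themselves and lipoprotein receptors, 1 had a reproducible KQ peak within 50 kb and 16 had a reproducible wild-type peak, beside 2.68% and 37.7% of all genes. The 1 with KQ was LIPA, the acid lipase of lysosomes, whose KQ peak inside the gene (chromosome 10, 89269814 to 89270145, fold 6.64) lay on its strongest wild-type peak (89269888 to 89270132, fold 18.7). High wild-type folds besides that of LIPA were 17.9 inside CAV1, which forms caveolae, and 15.3 inside LRP1, a receptor for remnant particles. APOC2, the activator of lipoprotein lipase, had 18.8, but its peak lay 38.3 kb away and nearest to CLPTM1. APOC1 and APOE shared 1 wild-type peak (fold 11.8). Over the 16 genes the median highest reproducible fold was 12.8 with wild type, beside 10.1 over all genes with such a peak. The 25 genes too were listed with earlier results of these data known, so these shares and medians are not a test. ANGPTL8, a relative of ANGPTL4 that also restrains the lipase, had no peak in any list.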

How the data were processed

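PPARγ ChIP-seq was analysed from the processed peak lists of 4 libraries, 2 from KQ and 2 from wild-type cells, and from 1 pooled list per group. Per the submitters' processing notes, Bowtie2 (version 2), the hg38 build, MACS2, bedtools, deepTools and HOMER were used. The sources used here do not state how the caller was set or whether input served it. Each list as deposited by the authors gives per peak a fold enrichment (a ratio), −log10 of the p-value and of the q-value (entered as a score for the pooled lists), and a summit. Peaks on chromosomes 1 to 22 and X were kept.

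Replicate numbers came from the labels' titles. Gene spans are those of RefSeq on GRCh38.p14, and since no exons are listed, a peak inside a gene is not placed in an exon, intron or untranslated region. RefSeq start windows run from 250 bases before to 50 after a start. They were matched by symbol for 4 of the 5 genes. Tags k and background b at a summit were solved from fold = (k + 1)/(b + 1) and p = the Poisson chance of more than k tags. In 100% of peaks of every list a whole k met both within a relative 1e-04. More than 1 value of k did so in at most 0.599% of the peaks of a list, where the closest was taken. These steps were tested on simulated data. PCR copies are not independent molecules, so intervals cover counting error only.

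Named genes are the 5 members, those of the further list with a reproducible KQ peak or among its 5 highest wild-type folds, and the 3 nearest in pattern to ANGPTL4 that share no peak with it. Some genes of that list are not reported here. APOC1, APOE and ANGPTL8 were named after their values were seen. The members and lists were chosen with earlier results of these data known. Alternatives were other windows, a stricter q, a larger overlap, single libraries, list length and pairing. Python 3.11.15, pandas 2.3.3 and scipy 1.17.1 were used.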

Additional observations from a re-analysis of the deposited data

How the results depend on the processing

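The count of genes with a reproducible KQ peak stayed at 1 in a 5 kb window, inside the span, with the nearest gene, with −log10 q of at least 5 and with a larger share of the pooled peak required to be covered. It was 2 within 60 kb, a limit chosen after the data were seen, and 3 with all pooled peaks, and it ranged from 2 to 3 when a KQ library was left out, which relaxes the rule to the other library. The number of reproducible KQ peaks was 2 within 60 kb, 7 with all pooled peaks, and 3 to 4 without a library. The number of reproducible wild-type peaks was 4 both in the 5 kb window and inside the span, 22 with all pooled peaks, and 13 to 14 without a library. With the reproducible wild-type list limited by q to 354 peaks, the length of the reproducible KQ list, 1 gene, with 1 peak, had a reproducible wild-type peak, against 4 genes and 8 peaks in the full list. The count of genes with a reproducible wild-type peak ranged from 4 to 5 without a library. The number of pooled KQ peaks that overlapped a pooled wild-type peak was 6 in the main setting and with the nearest gene. It was 5 within 5 kb, inside the span, with −log10 q of at least 5 and with the larger share covered, and 8 within 60 kb. Apart from the setting with all pooled peaks, shares of all genes under these alternatives were not counted.

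The difference in peaks per library, KQ minus wild type, reversed at ANGPTL4 inside the span, to 0.5, and was 0 at LMF1 both within 5 kb and inside the span. It shrank to -0.5 at ANGPTL4 within 5 kb, to -2.5 at CD36 and -0.5 at VLDLR both within 5 kb and inside the span, and to -1 at VLDLR with −log10 q of at least 5, and it was -3.5 at VLDLR and -1 at LPL within 60 kb. Leaving out a library gave -4 to -3 at ANGPTL4, -6.5 to -5.5 at CD36, -2 at VLDLR, -1 to 0 at LPL and -1 to 0 at LMF1. It was 0 at LPL without KQ library 2 and 0 at LMF1 without wild-type library 1. With the replicate block the differences were the same, -3.5 at ANGPTL4, -6 at CD36, -2 at VLDLR and -0.5 at LPL and LMF1, and the exact p was 0.5 for the first 3 and 1 for the others. By their labels, same-numbered libraries share only a number. Over all protein-coding genes the deviations of same-numbered libraries had r = -0.0108. Since only 16.4% of genes had a pooled KQ peak, this value cannot tell whether the libraries were paired. Of the values under alternatives, 69 were counts within 1.5 times the reported one or differences of the reported sign, whatever their size, 19 were not, and 1 more reversed. Peaks of few tags, such as the 7 tags upstream of LPL, lie near the limit of what these depths can call.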

Other observations

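At the 5 genes, 5 further sites were called in 1 wild-type library and in no pooled list. Library 1 had those 42.7 kb before ANGPTL4 (fold 6.60, 16 tags, beside NDUFA7), 20.5 kb before CD36 (5.15, 8 tags), at 80623519 to 80623660 in CD36 (4.83, 9 tags) and inside VLDLR (5.73, 9 tags). Library 2 had the one 10.5 kb before CD36 (5.64, 6 tags). The peak in VLDLR was the only one of any list inside that gene.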
